A study of Mus musculus with 14 samples.

Results

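The protamine and transition protein genes Prm1, Prm2, Prm3, Tnp1 and Tnp2 were taken by name, and all 5 were found among the 24984 gene symbols of each count table. They were followed through 14 bulk RNA sequencing libraries of c-KIT-positive spermatogonia sorted from C57BL/6J mouse testes, in a study of the Polycomb subunit gene Cbx2. Deleted animals (n = 2) were Rosa26-CreERT2; Cbx2 Flox/Δ and had 3 tamoxifen injections; their controls (n = 2) were Rosa26-CreERT2; Cbx2 Flox/+ and had corn oil. Every animal of this experiment thus carried the tamoxifen-inducible Cre, whose Rosa26 promoter is active in most cell types, and genotype and drug differed together. Cbx2 23KRA/23KRA animals (n = 5), whose allele changes K and R residues of the CaPS domain of CBX2 to A, were compared with Cbx2 +/+ animals (n = 5), none of them treated. Each library stands for 1 animal by the labels' counts, and no age is given for them. The deletion libraries came from an mRNA kit and the 23KRA libraries from a kit for total RNA that removes ribosomal cDNA, so each experiment was scaled and tested apart.

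Protamines are small, basic nuclear proteins that pack sperm DNA after the histones have been removed. Transition proteins occupy the chromatin of elongating spermatids between histones and protamines. The genes are transcribed in round spermatids, after meiosis, and the mRNAs are held untranslated in ribonucleoprotein particles until the spermatid elongates. c-KIT-positive spermatogonia come before meiosis, so these transcripts belong to a later germ cell stage than the one the sort was aimed at.

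The deletion libraries held 28169990 to 31166500 counts and the 23KRA libraries 14562564 to 19814511. The 8 genes listed for the sorted stage, Kit and Stra8 among them, were detected in every library, at a summed level of 1711 to 1779 CPM (the usual depth-scaled count, with libraries made comparable by TMM factors) in the deletion and 1340 to 1641 CPM in the 23KRA experiment. The 19 other spermatid genes listed were also detected in every library. Cbx2 itself was at 93.8 and 97.6 CPM in the corn oil controls and at 78.5 and 86.5 CPM in the libraries labelled as deleted (log2 fold change -0.21, SE 0.12; edgeR adjusted p = 0.971). Its gene count thus does not show the loss, and counts within the deleted part of the gene were not analysed here, so deleted is used below as the name of a label. In the 23KRA libraries, where the mutation need not change the count, Cbx2 was at 48.7 to 89.6 CPM. The 4 globin genes listed for erythroid cells were at 0 in all 14 libraries.

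Prm1, Prm2, Prm3 and Tnp2 lie side by side on the minus strand of mouse chromosome 16, between 10787936 and 10805839 on GRCm38, within 17904 bases. Tnp1 lies on the minus strand of chromosome 1, from 73015074 to 73015909. All are protein-coding and short: their annotated exons cover 571 bases in Prm1, 894 in Prm2, 410 in Prm3, 437 in Tnp1 and 554 in Tnp2. Prm3 has a single exon, and Tnp1 and Tnp2 have 2 exons each. Tnp1 shares 40 exon bases with 1700027A15Rik on the opposite strand. Whether the counting used strand is not given, so some reads there could belong to either gene.

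The promoters of the 5 genes are shown for their sequence alone, and any link to the mRNA levels was not tested. Each sequence runs from 150 bases before to 50 bases after the RefSeq start site on GRCm38.p6, and capitals mark matches, on either strand, to TATAA (also where it extends to TATAAA), to the pattern TATATA, or to TGANNTCA.
Prm1 (chr16:10796774-10796973, minus strand): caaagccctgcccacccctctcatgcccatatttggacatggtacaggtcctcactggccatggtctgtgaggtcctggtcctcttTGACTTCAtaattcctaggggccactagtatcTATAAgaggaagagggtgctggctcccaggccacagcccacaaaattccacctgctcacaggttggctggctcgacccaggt
Prm2 (chr16:10792056-10792255, minus strand): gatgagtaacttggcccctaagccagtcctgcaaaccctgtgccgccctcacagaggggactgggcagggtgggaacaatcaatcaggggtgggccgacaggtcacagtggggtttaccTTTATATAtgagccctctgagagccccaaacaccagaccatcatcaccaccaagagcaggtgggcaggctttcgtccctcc
Prm3 (chr16:10790865-10791064, minus strand): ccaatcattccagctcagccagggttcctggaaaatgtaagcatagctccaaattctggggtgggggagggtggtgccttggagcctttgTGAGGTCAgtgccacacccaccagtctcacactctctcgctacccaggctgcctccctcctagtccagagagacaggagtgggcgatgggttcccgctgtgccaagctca
Tnp1 (chr1:73015850-73016049, minus strand): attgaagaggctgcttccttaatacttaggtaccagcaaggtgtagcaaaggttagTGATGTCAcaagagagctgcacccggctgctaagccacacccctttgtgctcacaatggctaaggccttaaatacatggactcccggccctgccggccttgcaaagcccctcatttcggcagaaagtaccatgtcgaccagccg
Tnp2 (chr16:10788606-10788805, minus strand): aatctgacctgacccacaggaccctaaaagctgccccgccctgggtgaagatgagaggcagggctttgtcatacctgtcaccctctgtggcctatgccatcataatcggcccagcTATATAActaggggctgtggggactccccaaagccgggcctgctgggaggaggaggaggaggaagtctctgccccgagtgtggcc
In Prm1 the TGANNTCA match reads TGACTTCA and starts 64 bases before the start site. In Prm3 it reads TGAGGTCA, 60 bases before, and in Tnp1 TGATGTCA, 94 bases before. The pattern resembles the cyclic AMP response element TGACGTCA, to which the spermatid activator CREM binds, but neither the full element nor its first part TGACG matched in any of the 5 windows of 300 bases. Over 32851 promoter windows of the same length, 14.1% held TGANNTCA (which includes the full element), 20.8% held TGACG and 1.79% held TGACGTCA. TATAA, 32 bases before the start of Prm1 and 33 before that of Tnp2, was found in 24.9% of all windows, and Prm2 held it on the other strand, within the longer TATAAA match (13.6% of windows). TATATA, which overlaps those matches in Prm2 and Tnp2, was in 5.67%, and CCAAT, found in Prm3 at 150 bases before the start, in 37.4%. TGANNTCA, TATAA and TATATA were chosen after the sequences had been read, and a match describes the letters only.

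Transcripts of all 5 genes were found in every library, and their order differed between the experiments. In the deletion libraries the 5 genes together took 0.216% to 0.289% of all counts, and in the 23KRA libraries 0.0202% to 0.0993%. Per length, Prm1 stood highest in the deletion libraries at 1820 ± 207 CPM per kb (SD, n = 4), followed by Tnp2 at 902 ± 113 and Prm2 at 792 ± 78.8 CPM per kb. Tnp1 had 501 ± 56.7 CPM per kb and Prm3 149 ± 17.0 CPM per kb. Neighbours in this order did not overlap except Tnp2 and Prm2, and these change places when length is taken from the longest transcript (Prm2 1050, Tnp2 902 CPM per kb).

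In the 23KRA libraries Prm2 stood highest at 315 ± 151 CPM per kb (SD, n = 10), and Tnp1 followed at 266 ± 121 CPM per kb. Tnp2 had 197 ± 85.3, Prm1 119 ± 57.5 and Prm3 50.3 ± 28.7 CPM per kb. All neighbours in that order overlapped in range, although Tnp2 was above Prm1 and Prm1 above Prm3 in each of the 10 libraries. The ratio of Prm2 to Prm1 was 0.654 to 0.735 in the deletion libraries and 2.52 to 5.99 in the 23KRA libraries, 2 ranges that do not meet. Library kit, experiment and mouse line differ together here and cannot be told apart.

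**Figure D1:**
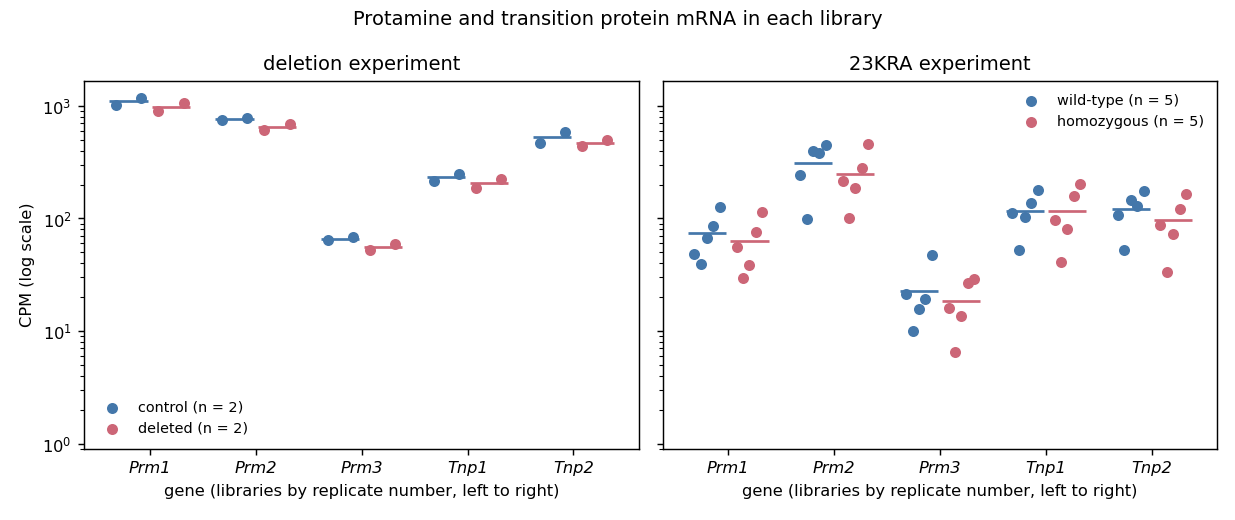
CPM of each gene (log scale) in every library, with controls in blue and mutants in red, libraries in order of replicate number within a group and lines at the group means. In the deletion experiment each gene spans at most 1.32-fold over 4 libraries, and in the 23KRA experiment 4.29 to 7.30-fold over 10 libraries.

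The first comparison asked whether these late germ cell transcripts differ after induced deletion of Cbx2, as labelled. All 5 genes had lower means in the animals labelled as deleted, at 84.4% to 88.9% of the control mean, and none passed the test. For Prm1, the protamine shared by mammals, control replicates 1 and 2 had 1018 and 1183 CPM and deleted replicates 1 and 2 had 896 and 1060 CPM. The groups overlapped, since deleted replicate 2 was above control replicate 1. By edgeR's quasi-likelihood test the log2 fold change came to -0.17 with an SE of 0.11 (adjusted p = 0.971).

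Prm2, which is made as a precursor and trimmed during sperm maturation, had 748 and 774 CPM in the oil-treated controls, and 614 and 696 CPM after deletion. Here both deleted libraries were below both controls. The log2 fold change was -0.22 (SE 0.11; edgeR adjusted p = 0.971; 95% interval -0.43 to 0.0011). Prm3, whose protein is acidic and not a DNA-packing protamine, had 63.8 and 68.4 CPM in the controls, with 52.0 and 59.5 CPM after deletion, again without overlap. Its log2 fold change was -0.25 (SE 0.12; edgeR adjusted p = 0.971).

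The transition protein genes also had lower means, with overlapping groups. Tnp1 stood at 217 and 247 CPM in the controls, with 187 and 224 CPM after deletion, a log2 fold change of -0.18 (SE 0.11). Tnp2 stood at 470 and 588 CPM in the controls, with 444 and 496 CPM after deletion, a log2 fold change of -0.17 (SE 0.11). For both genes deleted replicate 2 exceeded control replicate 1, unlike in Prm2 and Prm3 (edgeR adjusted p = 0.971 for each).

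Of the 5 genes tested, 0 were called, where edgeR called 0.012% of 16725 genes in either direction, 0.00598% up and 0.00598% down. Unadjusted, 0 of the 5 had a p under 0.05 in edgeR; the smallest was 0.0511, for Prm2, where 793 of all genes passed that mark. With total counts alone as scaling, Prm2 and Prm3 had unadjusted p = 0.0299 and 0.0465 by edgeR, and adjusted p = 0.964. DESeq2 and limma-voom also called 0 of the 5. Prm2 and Prm3, 2 of 5, did not overlap between groups and were lower in the deleted animals, and 17.5% of all genes tested did likewise. With 2 libraries a side, the smallest p that the exact permutation test (two-sided) allows is 0.333; Prm2 and Prm3 reached it and the others had p = 0.667. Without control replicate 2 the log2 fold change of Tnp2 was 0.0014 and that of Prm1 -0.057. Leaving out deleted replicate 1 gave -0.049, -0.13, -0.15 and -0.046 for Prm1, Prm2, Prm3 and Tnp1. Leaving out deleted replicate 2 gave -0.30, -0.31, -0.35, -0.31 and -0.25 for Prm1, Prm2, Prm3, Tnp1 and Tnp2.

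**Figure D2:**
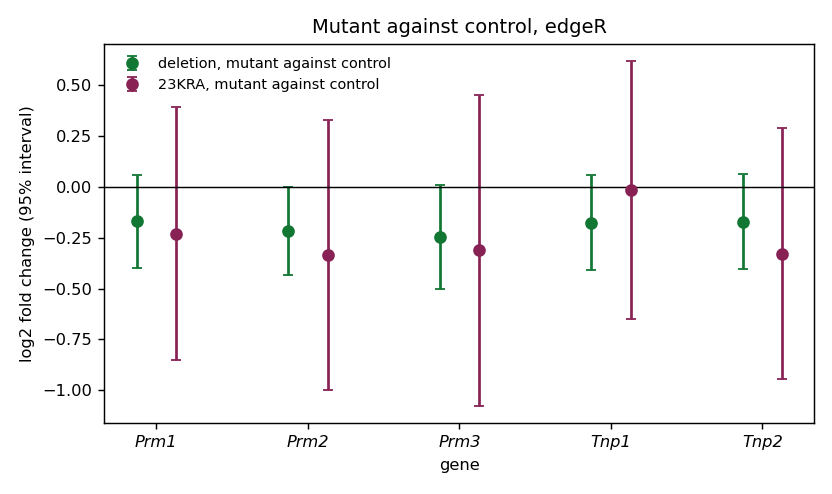
Log2 fold change of each gene, mutant against control, from the edgeR test, with 95% intervals; deletion in green (2 against 2 libraries) and 23KRA in purple (5 against 5). All 10 estimates lie below 0 and all 10 intervals include 0, and the 23KRA intervals are the wider for each gene.

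The 23KRA comparison asked the same of the CaPS domain mutation. All 5 genes again had lower means in the mutants, from 79.3% of the wild-type mean for Prm2 to 99.0% for Tnp1, within far larger differences between libraries of the same group. For Prm1, wild-type replicates 1 to 5 had 48.8, 39.3, 66.5, 86.4 and 127 CPM. Homozygous replicates 1 to 5 had 56.0, 29.7, 38.5, 75.9 and 114 CPM. The groups overlapped over most of their range (log2 fold change -0.23, SE 0.30; edgeR adjusted p = 1.00).

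For Prm2, wild-type replicates had 245, 99.3, 398, 378 and 451 CPM, and homozygous replicates 213, 100.5, 188, 281 and 462 CPM. Replicate 2 was lowest and replicate 5 highest in each group. The log2 fold change was -0.33 (SE 0.32; upper end of the 95% interval 0.33). Prm3 was the lowest of the 5, with 21.5, 10.04, 15.7, 19.4 and 47.6 CPM in wild-type replicates, and 16.0, 6.52, 13.6, 26.9 and 29.0 CPM in the homozygous ones. Its lowest library was homozygous replicate 2 and its highest wild-type replicate 5. The difference was -0.31 on the log2 scale (SE 0.37).

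Tnp1 had 112, 52.8, 103, 138 and 179 CPM in wild-type replicates, and 96.2, 41.0, 81.4, 158 and 202 CPM in the homozygous ones, a log2 fold change of -0.014 (SE 0.30). Tnp2 had 106, 52.5, 145, 128 and 175 CPM in wild-type replicates, and 88.1, 33.4, 73.5, 122 and 166 CPM in the homozygous ones, a log2 fold change of -0.33 (SE 0.30). In both genes the homozygous values reached from below the lowest wild-type library to near or above the highest. The exact two-sided permutation p was 0.429 to 0.817 over the 5 genes, with 0.00794 the smallest possible for 5 against 5 libraries.

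Of the 5 genes, 0 were called, and 0% of 14208 genes were called in either direction by edgeR. Unadjusted, 0 of the 5 and 432 of all genes had a p under 0.05 in the main edgeR fit, and DESeq2 and limma-voom also called 0 of the 5. None of the 5 separated the groups, where 0.274% of genes were lower in every homozygous than in every wild-type library. The intervals reach down to -1.08 for Prm3 and -0.95 for Tnp2 on the log2 scale, so sizeable differences were not detectable at this spread. Without wild-type replicate 5, the library with the most of these transcripts, Prm1, Prm3 and Tnp1 had log2 fold changes of 0.061, 0.14 and 0.19. Without homozygous replicate 5 those of Prm2 and Tnp2 were -0.68 and -0.61, and without homozygous replicate 2 they were -0.13 and -0.11.

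The ratio of the transition protein genes to each other separated the 23KRA groups, which neither gene did alone. The ratio of Tnp1 to Tnp2 CPM was 1.05, 1.01, 0.712, 1.07 and 1.02 in wild-type replicates 1 to 5. In homozygous replicates 1 to 5 it was 1.09, 1.23, 1.11, 1.30 and 1.21. Every homozygous library was above every wild-type library, by 0.30 in mean on the log2 scale. The exact two-sided permutation p was 0.00794, the smallest possible, and the adjusted p over the 10 pairs of genes was 0.0794. It thus did not pass at 0.05. A single pair at the smallest p could not have passed over 10 pairs, so the correction cannot decide here. Without wild-type replicate 3, the lowest library, the mean difference was 0.19, and with any other library left out it was 0.27 to 0.34. Groups that separate fully stay separated when a library is removed, so no p is given for these. The nearest libraries, homozygous replicate 1 at 1.09 and wild-type replicate 4 at 1.07, have counting errors (SE) of 0.036 and 0.032, so their order is within counting error. The test was added after the values had been seen, and in the other 9 pairs the adjusted p was 0.921. In the deletion libraries the same ratio was 0.463 and 0.420 in controls and 0.421 and 0.452 in deleted animals.

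**Figure D3:**
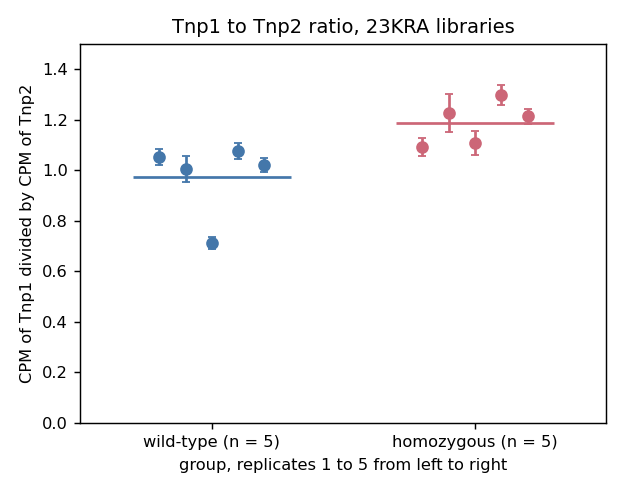
CPM of Tnp1 divided by CPM of Tnp2 in each 23KRA library, with counting errors (SE) as bars and group means as lines. Wild-type libraries lie between 0.712 and 1.07 and homozygous libraries between 1.09 and 1.30.

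In the 23KRA experiment the 5 genes varied widely between libraries of the same group. The summed level of the 5 genes was 2516 and 2860 CPM in the oil-treated controls, with 2194 and 2536 CPM after deletion. In the 23KRA experiment it was 533, 254, 728, 750 and 980 CPM in wild-type replicates, and 470, 211, 395, 664 and 973 CPM in the homozygous ones. The highest of those 10 libraries, wild-type replicate 5, thus had 4.64 times the level of the lowest, homozygous replicate 2. Within groups, the SD of log2(CPM + 1) lay between 0.093 and 0.18 for the deletion libraries, against 0.71 to 0.85 for those of 23KRA. In the latter, 1.06% to 2.04% of the 8929 tested genes with at least 10 CPM had a larger SD, against 14.5% to 57.7% of 9889 genes in the deletion. Among all genes tested, 4.26% to 12.2% of 14208 had a larger SD in 23KRA, and 25.4% to 66.0% of 16725 in the deletion. Counting error is smaller: at the lowest count of all, 99 reads of Prm3 in homozygous replicate 2, it is 10.1% of the value (exact 95% Poisson interval 80.5 to 121 reads), and for the other 4 genes at most 4.71%.

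The proportions between the 5 genes varied less than their level. Over the 23KRA libraries the SD of the log2 ratio of Prm2 to Tnp2 was 0.20, where the SD of each gene's log2 CPM was 0.82 and 0.77. The ratio of Prm2 to Tnp2 ranged from 1.89 to 3.01. The ratio of Prm3 to Prm2 was the least steady, with an SD of 0.45, while that of Prm3 to Tnp1 had an SD of 0.27. In the deletion libraries the SD of the log2 ratio ran from 0.016 for Tnp1 and Prm1, the steadiest pair, to 0.12 for Prm2 and Tnp2, where the SD of each gene's log2 CPM was 0.15 to 0.17.

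Other spermatid genes were high and low in the same libraries. The 19 genes on that list (proteins of acrosome, flagellum, mitochondrial sheath and spermatid kinases) summed to 425, 247, 614, 538 and 809 CPM in wild-type replicates 1 to 5 and to 350, 142, 323, 491 and 815 CPM in homozygous replicates 1 to 5. Divided by that sum, the 5 protamine and transition protein genes ranged only from 1.03 to 1.49. The SD over libraries on the log2 scale was 0.15 for this ratio and 0.76 for the summed level of the 5 genes. The ratio was added after the data had been seen. The mean of this ratio was 1.21 ± 0.13 in wild type and 1.32 ± 0.12 in homozygotes (SD, n = 5 each). In the deletion libraries the list summed to 2520 and 2596 CPM in the controls, with 2112 and 2371 CPM after deletion, and the ratio was 1.05 ± 0.073 in controls and 1.05 ± 0.022 in deleted animals (SD, n = 2 each). The part of late germ cells or of their RNA in the sorted material was not tested, and in bulk RNA fewer cells of a type and less RNA per cell cannot be told apart.

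**Figure D4:**
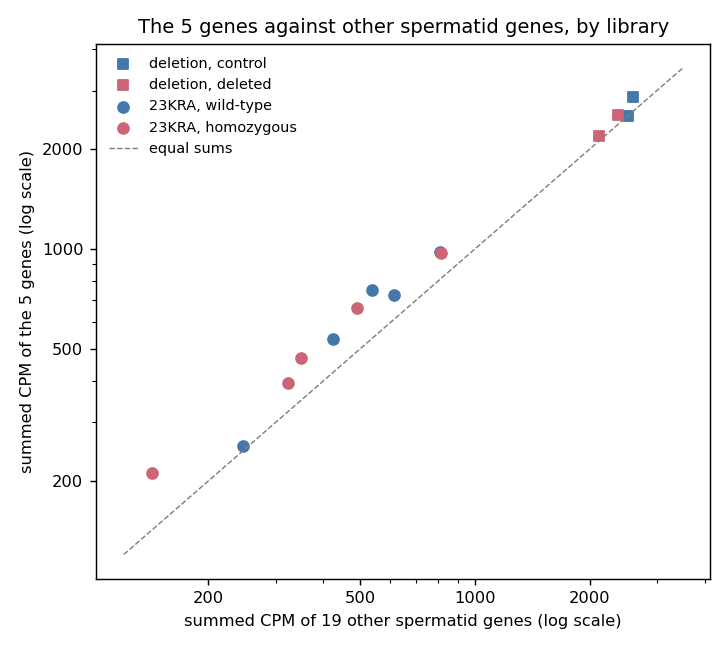
Summed CPM of the 5 genes against summed CPM of 19 other spermatid genes, by library, both on log scales, with squares for the deletion and circles for the 23KRA experiment. Points lie near or above the line of equal sums, with ratios from 0.999 to 1.49, over a range of 142 to 2596 CPM on the horizontal axis.

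The summed levels of lists for earlier stages varied less between libraries. The pachytene spermatocyte genes (11 genes, among them the sperm-type lactate dehydrogenase gene Ldhc) had a within-group SD of their log2 summed level of 0.44 in the 23KRA experiment. The same SD was 0.086 for the 8 genes of c-KIT-positive spermatogonia and 0.79 for the 5 protamine and transition protein genes. Within the pachytene list genes did not vary alike, with Ldhc at 84.4 ± 32.9 and Hspa2 at 121 ± 30.7 CPM in wild type (SD, n = 5). Hspa2, Piwil1 and Tbpl1 of this list each also stand on a list of regulators named next. The summed levels of genes that act on these mRNAs or in the exchange of histones varied least in this experiment. The SD was 0.048 for 18 histone removal and chromatin factors, 0.054 for 13 transcription regulators and 0.046 for 15 mRNA storage and translation factors. Abundant genes weigh most in such sums. Taf7l and Brwd1 had 834 and 563 CPM in wild type, where the 13 transcription regulators summed to 1915 to 2067 CPM. The spread of single genes on these lists was not examined. In the deletion the c-KIT-positive list had the smallest SD, 0.022, against 0.026, 0.034 and 0.048 for these 3 lists. Most of these regulators are also expressed before the spermatid stage. Homozygous replicate 5, with the highest level of Tnp1 and Prm2, had the lowest sum of the c-KIT-positive list (1340 CPM, the others 1514 to 1641).

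**Figure D5:**
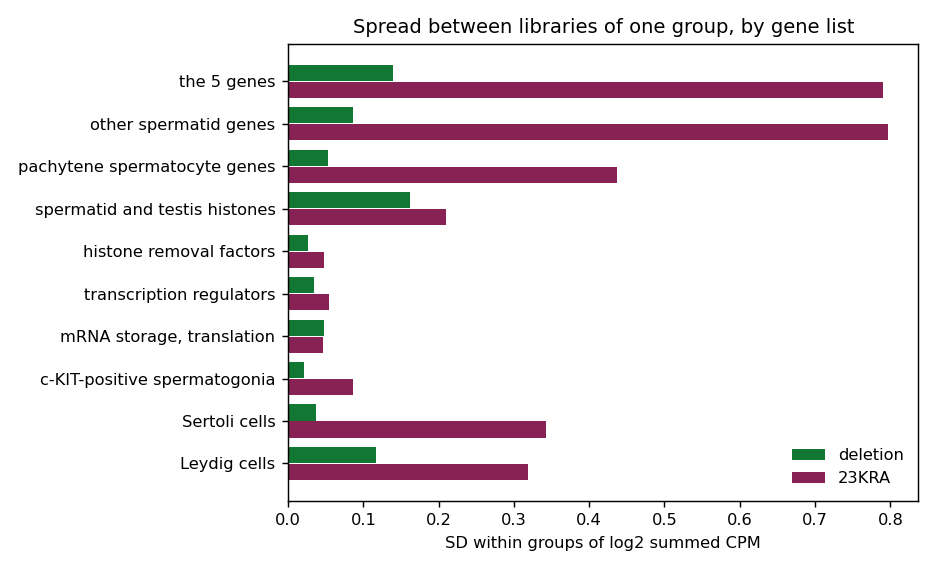
SD within groups of the log2 summed CPM of each gene list, for the deletion (green, groups of 2) and 23KRA experiment (purple, groups of 5). In 23KRA the 5 genes (0.79) and the other spermatid genes (0.80) have the widest spread of the 10 lists drawn, and the mRNA storage list (0.046) the narrowest; macrophage markers, not drawn, reach 1.47.

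The 8 genes with a profile closest to the summed level over the 10 libraries of 23KRA are listed by the root mean square difference of centred log2 values. They were Adam5 (0.11), of the sperm ADAM family; Akap4 (0.12), an anchoring protein of the fibrous sheath of the flagellum; Crisp2 (0.13), a sperm cysteine-rich secretory protein; and Erich3 (0.14). Then came Dbil5 (0.15), the testis fatty acid binding protein gene Fabp9 (0.17), the haploid germ cell antizyme gene Oaz3 (0.18) and the nucleotidase gene Nt5c1b (0.18). All 8 were lowest in homozygous replicate 2, and each was highest in replicate 5 of one group or the other. They were chosen for their likeness over these same libraries, so sharing the low and high libraries of the 5 genes was built in. The 5 protamine and transition protein genes were highest in those libraries too, and lowest in homozygous replicate 2 except Prm2, which was lowest in wild-type replicate 2. The 8 were taken from 1099 genes of at least 10 CPM with an SD of at least 0.5 times that of the summed level, and Akap4 and Oaz3 are also among the 19 spermatid genes.

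In both comparisons most of the other spermatid genes lay below 0, as the protamine genes did. As a sum they rose and fell with the 5 protamine and transition protein genes between libraries, so they are not independent observations. Counts of genes above or below 0, here and further on, were not tested. After the deletion 18 of 19 were below 0, all but Cabs1, with a median log2 fold change of -0.22, and 0 passed. Over all genes tested 51.0% were below 0 and the median was -0.0044. Smcp, a protein of the sperm mitochondrial capsule, stood at 535 ± 61.0 CPM in the controls, with 428 ± 29.7 CPM after deletion (SD, n = 2), and Akap4 494 ± 27.1 and 473 ± 58.3 CPM. In 23KRA homozygotes 17 of 19 were below 0, all but Izumo1 and Ropn1, with a median of -0.30, and 0 passed; over all genes 49.2% were below 0 and the median was 0.0034. Smcp stood at 116 ± 49.1 CPM in wild-type libraries, with 89.5 ± 59.6 CPM in homozygous ones (SD, n = 5), and Akap4 76.1 ± 34.1 and 61.4 ± 34.0 CPM.

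The pachytene list had 9 of 11 genes below 0 after the deletion (median -0.14), with Ldhc at 490 ± 9.06 and 425 ± 25.7 CPM and Meig1, a gene needed for the sperm flagellum, at 381 ± 10.3 and 335 ± 8.24 CPM (SD, n = 2). In 23KRA 7 of 11 were below 0 (median -0.13), with Ldhc at 84.4 ± 32.9 and 66.1 ± 34.4 CPM and the heat shock chaperone gene Hspa2 at 121 ± 30.7 and 108 ± 27.8 CPM (SD, n = 5). None of these genes passed the edgeR test in either experiment.

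Of the factors that prepare the exchange of histones, 11 of 18 were above 0 after the deletion (median 0.026) and 8 of 18 in 23KRA (median -0.044). Hmgb2, a high mobility group protein, was at 989 and 1078 CPM in deletion controls and deleted animals, and at 1340 and 1372 CPM in wild type and homozygotes. Morf4l1, a chromodomain protein of acetyltransferase complexes, was at 369 and 381 CPM in the deletion, and Ep400, a chromatin remodeller, at 594 and 606 CPM in 23KRA. Of 13 transcription regulators, 6 were above 0 after the deletion (median -0.088) and 5 in 23KRA (median -0.037). Taf7l, a germ cell TFIID subunit, was at 862 and 876 CPM in the deletion and 834 and 813 CPM in 23KRA. The bromodomain gene Brwd1 was at 202 and 203 CPM in the deletion and 563 and 547 CPM in 23KRA. None passed in either list.

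Of 15 genes for mRNA storage and translation, 9 were above 0 after the deletion (median 0.025) and 6 in 23KRA (median -0.050), and none passed. The germ cell helicase gene Ddx4 was at 736 and 805 CPM in the deletion and 632 and 611 CPM in 23KRA. Paip2, which restrains poly(A)-binding protein, was at 541 and 581 CPM in the deletion, and Pabpc1, that binding protein, at 683 and 628 CPM in 23KRA. Of 14 other testis and variant histone genes listed, 13 were found by symbol. Of 11 tested, 7 were below 0 after the deletion (median -0.20), and of 9 tested, 3 in 23KRA (median 0.026), with none passing. H3f3b and H2afv, which somatic cells also use, were at 2452 and 2469 CPM and at 246 and 263 CPM in the deletion. The testis-specific Hist1h2aa and Hist1h2ba were at 944 and 1070 CPM and at 940 and 1071 CPM in 23KRA.

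Markers of somatic testis cells were present at low levels, with Sertoli markers at 33.5 to 64.5 CPM in sum in the 23KRA libraries. Leydig markers summed to 21.0 to 24.6 CPM in the controls, with 16.1 to 16.4 CPM after deletion, and Cyp17a1, an enzyme of androgen synthesis, fell from 6.06 ± 1.84 to 1.66 ± 0.281 CPM (SD, n = 2; edgeR adjusted p = 0.00315). Macrophage markers summed to 19.5 to 22.2 CPM in controls and to 38.5 and 17.4 CPM in deleted replicates 1 and 2. Sertoli markers summed to 102 to 107 CPM in controls and 101 to 104 CPM in deleted animals. In 23KRA wild-type replicate 3, the library with the lowest ratio of Tnp1 to Tnp2, had 73.9 CPM of macrophage markers, against 1.67 to 18.2 CPM in the other 9 libraries, where up to 3 of the 5 markers were at 0; its part in that ratio was not tested.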

How the data were processed

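Raw read counts per gene symbol were deposited, with no normalization, as 2 tables of 24984 genes (4 and 10 libraries); every column was matched to its library by name. Per the submitters' processing notes, the tools included STAR 2.5.3 for mm10, Trim Galore 0.4.3, Subread 1.5.0 with featureCounts, and SAMtools 1.4.1; gene annotation, strand setting and treatment of multi-mapping reads: not given in the sources used here. Per the labels' protocols, deletion libraries were amplified with 7 and 11 PCR cycles and 23KRA libraries with 5 and 16, so reads are not independent molecules and counting errors cover sampling only.

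Each experiment was analysed with R 4.3.3 and edgeR 4.0.16: filterByExpr (16725 and 14208 genes kept, all 5 members in both), TMM scaling, and the quasi-likelihood F test (two-sided), adjusted after Benjamini and Hochberg over all genes tested, with calls at 0.05. CPM uses the total of assigned counts times the TMM factor as library size. An SE is the absolute log2 fold change over the root of F. Lengths and positions are from GENCODE M21 (GRCm38), promoters from RefSeq (GRCm38.p6; all 5 matched by symbol). Alternatives used DESeq2 1.42.0 and limma 3.58.1. The test was tried first on simulated counts. Likeness and list genes were named by fixed rules: up to 4 called genes of a list, otherwise the 2 of highest mean CPM; the 8 nearest profiles. The members and lists were chosen with earlier results of these data known. Replicates are taken as separate animals, and p-values measure the spread between them and their preparations together.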

Additional observations from a re-analysis of the deposited data

Results flagged for a closer look

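Of 36 groups of 5 libraries in the 23KRA experiment that were examined for a library far from the rest (levels of the 5 genes, ratios between them and to other spermatid genes, and summed levels of 3 lists), 4 were flagged, and chance flags about 1 in 20. The ratio of Tnp1 to Tnp2 was 0.712 in wild-type replicate 3, far below the nearest other wild-type library at 1.01. The ratio of Tnp1 to Prm1 was 2.30 in wild-type replicate 1, with the next at 1.60. The ratio of Tnp1 to Prm2 was 0.563 in homozygous replicate 4, with the next at 0.451. The summed level of the genes of c-KIT-positive spermatogonia was 1340 CPM in homozygous replicate 5, with the next homozygous library at 1539 CPM; the same library had the highest levels of Prm2 and Tnp1. No level of Prm1, Prm2, Prm3, Tnp1 or Tnp2 itself was flagged in either group.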

How the results depend on the processing

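None of the 5 genes was called in either experiment under any alternative run: another scaling, another filter, DESeq2, limma-voom, the replicate block, each library left out, and, in 23KRA, both libraries with fewest genes detected left out, an alternative added after the data had been seen. The count of all genes called in the deletion, 2, was 1 with total counts alone, with the filter at 5 CPM, with DESeq2 and with limma-voom, 8 without a filter, and 2 to 73 with 1 library left out. With 1 library left out, the log2 fold change of Tnp2 in the deletion ranged from -0.31 to 0.0014, and in 23KRA those of Prm1, Prm3 and Tnp1 ranged from -0.56 to 0.061, -0.54 to 0.14 and -0.31 to 0.20; Prm2 and Tnp2 ranged from -0.68 to -0.13 and from -0.61 to -0.11 there, and Prm2 and Prm3 in the deletion from -0.31 to -0.13 and from -0.35 to -0.15. With 1 library left out, Prm1 and Tnp1 in the deletion ranged from -0.30 to -0.049 and from -0.31 to -0.046. Without both libraries with fewest genes detected, Prm1, Prm2, Prm3, Tnp1 and Tnp2 in 23KRA had log2 fold changes of -0.48, -0.52, -0.68, -0.30 and -0.50. Replicate numbers are shared between groups, but the labels tie them to nothing. With the replicate block 62 genes were called in the deletion and 2 in 23KRA, with Prm2 at -0.22 on the log2 scale (adjusted p = 0.204 by edgeR) in the deletion and Tnp2 at -0.40 (adjusted p = 0.469 by edgeR) in 23KRA. In the blocked edgeR fit of the deletion all 5 genes had an unadjusted p under 0.05, from 0.00369 for Prm2 to 0.0352 for Tnp2. In the blocked edgeR fit of 23KRA, Tnp2, Prm2 and Prm1 had unadjusted p = 0.00106, 0.00270 and 0.0398. Prm3 and Tnp1 had 0.161 and 0.283 in that fit. How many of all genes had an unadjusted p under 0.05 in the blocked fits was not counted. The 5 genes varied together, so their p-values are not independent of each other. The block also leaves less from which to estimate the spread, least of all in the deletion. Without the block Prm2 in the deletion had unadjusted p = 0.0315 by edgeR with no filter and 0.0342 by limma-voom. Deviations of same-numbered libraries correlated at 0.16 in the deletion. With 2 libraries a group these deviations mirror each other, so this is a single value, and other pairs had -0.16. In 23KRA the correlation was -0.011 to 0.22, and 7 of 10 libraries were closest to their own number. Libraries closest to each other count on both sides there. This is a hint from the data and not the design. Per length of the longest transcript, Prm1 and Prm2 in the deletion stood at 2216 and 1050 CPM per kb. With a pseudocount of 0.1 or total counts alone, the SD within groups of Prm3 in 23KRA, main value 0.80, was 0.84 and 0.82. Low counts limit Prm3 most.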
